A study of Homo sapiens with 24 samples.

Results

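Described here are 34 genes of cholesterol and fatty acid synthesis, their regulators and sterol transport, in 2 human neuroblastoma cell lines after knockdown of FAM167A (also called DIORA1). The genes were given as a list of symbols, and all 34 were found by Ensembl identifier in each of the 3 deposited count tables, which hold 58735, 61541 and 78932 genes. The list is a selection of the pathway and not the whole of it. SK-N-SH cells received either a pool of siRNAs against FAM167A or a non-targeting control siRNA (5 and 5 libraries). In CRISPR interference (CRISPRi), a guide RNA brings Cas9 fused to the KRAB repressor domain to a gene's promoter. SK-N-SH cells (3 and 3 libraries) and SK-N-AS cells (4 and 4 libraries) carried SpCas9-KRAB with either the guide sgDIORA1 or the control guide sgGal4, so the fusion protein was shared by both arms of these experiments. Cells were grown in their standard complete media in all 6 groups. Nothing in the labels states that replicates came from separate cultures or clones, so the p-values measure the spread between these libraries, which may be technical.

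Cells make cholesterol from acetyl-CoA through mevalonate, the isoprenoid farnesyl pyrophosphate, squalene and lanosterol, and they make fatty acids from the same acetyl-CoA through malonyl-CoA. Both branches are switched on by the SREBP transcription factors, which SCAP escorts out of the endoplasmic reticulum when membrane sterol is low and which INSIG proteins hold back when it is high. Surplus sterol is sensed as oxysterols by the LXR nuclear receptors, whose known targets include the exporters ABCA1 and ABCG1, the ubiquitin ligase MYLIP and SREBF1. Nerve-derived cells are known to rely on their own sterol synthesis.

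FAM167A fell in all 3 experiments. Its mean was 188 ± 12.5 CPM (counts scaled to library size with TMM factors, mean ± SD) in the siRNA controls and 65.2 ± 5.13 CPM after siRNA (n = 5 and 5), a log2 fold change of -1.53. With CRISPRi it went from 242 ± 12.7 to 3.22 ± 0.588 CPM in SK-N-SH (n = 3 and 3, log2 fold change -6.23) and from 95.1 ± 3.56 to 10.2 ± 0.739 CPM in SK-N-AS (n = 4 and 4, log2 fold change -3.22). Libraries held 71464698 to 90255175 reads in the siRNA set, 11690515 to 21628076 in SK-N-SH CRISPRi and 29985858 to 104455853 in SK-N-AS. In the siRNA set, knockdown libraries 3 and 4 had 6.45% and 6.41% mitochondrial reads, against 8.45% to 8.67% in the other knockdown libraries. Of 10 adrenergic neuroblastoma markers, 9 were above 1 CPM in at least 1 library of each experiment; the exception was TH, the first enzyme of catecholamine synthesis, which averaged 0.141 CPM or less in the SK-N-SH groups and 0.718 CPM in SK-N-AS controls. Marker lists for glia, epithelium, endothelium and adipocytes or hepatocytes summed to at most 33.8 CPM in any library, and those for blood to at most 1.41 CPM in SK-N-SH. In SK-N-AS the blood list summed to 436 to 561 CPM, nearly all of it PTPRC, while CD3E and HBB had no read.

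In SK-N-SH CRISPRi the summed adrenergic markers went from 2309 to 2411 CPM in controls to 962 to 1005 CPM in knockdown libraries, with 8 of 9 tested genes down and TBX2 up. The summed mesenchymal markers went from 5880 to 6746 CPM in controls to 10935 to 11541 CPM, with 6 of 10 up and 2 down. Of all genes tested there, 28.0% fell and 27.7% rose. The sums moved less in SK-N-AS, where adrenergic markers summed to 2005 to 2103 CPM and 1773 to 1888 CPM and mesenchymal markers to 2721 to 2774 CPM and 2926 to 3010 CPM. Single markers went both ways there. Of 10 adrenergic markers 5 fell and TBX2 rose, and of 10 mesenchymal markers 7 rose while SOX9, TWIST1 and FN1 fell. Of all genes tested in SK-N-AS, 15.5% fell and 15.2% rose. After siRNA the mesenchymal sum instead fell, from 2625 to 2833 CPM to 2084 to 2350 CPM, with 7 of 10 markers down, where 6.98% of all genes fell. Whether these shifts in cell state had a part in the values below was not tested, and in bulk RNA fewer cells of a type and less RNA per cell cannot be told apart.

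The 34 genes responded mostly by small falls under CRISPRi, and little under siRNA. Calls rest on edgeR's quasi-likelihood test at an adjusted p under 0.05, with adjustment over every gene tested in that experiment. In SK-N-SH CRISPRi 17 of the 34 genes fell and 5 rose, 64.7% called, where 55.8% of all 15391 tested genes were called (28.0% down and 27.7% up). In SK-N-AS CRISPRi 18 of 33 tested genes fell and 1 rose, 57.6% called, where 30.6% of 19277 genes were called (15.5% down and 15.2% up). ABCG1 was not tested in SK-N-AS, where it lay at 0.130 CPM or less in every library. After siRNA 3 of 34 fell and 1 rose, 11.8% called, where 9.53% of 21018 genes were called (6.98% down and 2.55% up). The share called was thus near that of all genes in both SK-N-SH experiments. By a plainer measure, every knockdown library lay below every control for 17 of the 34 genes and above for 7 in SK-N-SH CRISPRi (30.5% and 30.2% of all genes, 60.7% together). The counts were 16 below and 1 above of 33 in SK-N-AS (14.6% and 14.4%, 29.1% together), and 2 below and 0 above of 34 after siRNA (6.08% and 2.65%, 8.74% together).

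The median log2 fold change of the 34 genes was -0.11 in SK-N-SH CRISPRi and -0.11 in SK-N-AS, beside -0.0068 and -0.0024 over all genes tested. After siRNA it was -0.0070, beside 0.0085. Only 3 genes changed at least 2-fold, all in SK-N-SH CRISPRi: ABCA1 rose, and ABCG1 and MYLIP fell. They make up 8.82% of the 34, where 10.8% of all genes tested there were called with a change of at least 2-fold. That share of all genes was 2.99% in SK-N-AS and 0.699% after siRNA. In the SK-N-SH CRISPRi libraries the choice of scaling matters, because the TMM factors of its groups differ (0.954 to 0.958 with sgDIORA1, 1.04 to 1.05 with sgGal4). With library sizes alone the median of all genes there moved to -0.14, and 22 of the 34 genes fell and 4 rose; no called gene changed sign. The same change of scaling turned the calls over all genes from 4269 up and 4313 down into 2791 up and 6397 down. After siRNA it turned 536 up and 1468 down into 1315 up and 1068 down, and upper quartile scaling into 933 up and 1220 down.

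**Figure D1:**
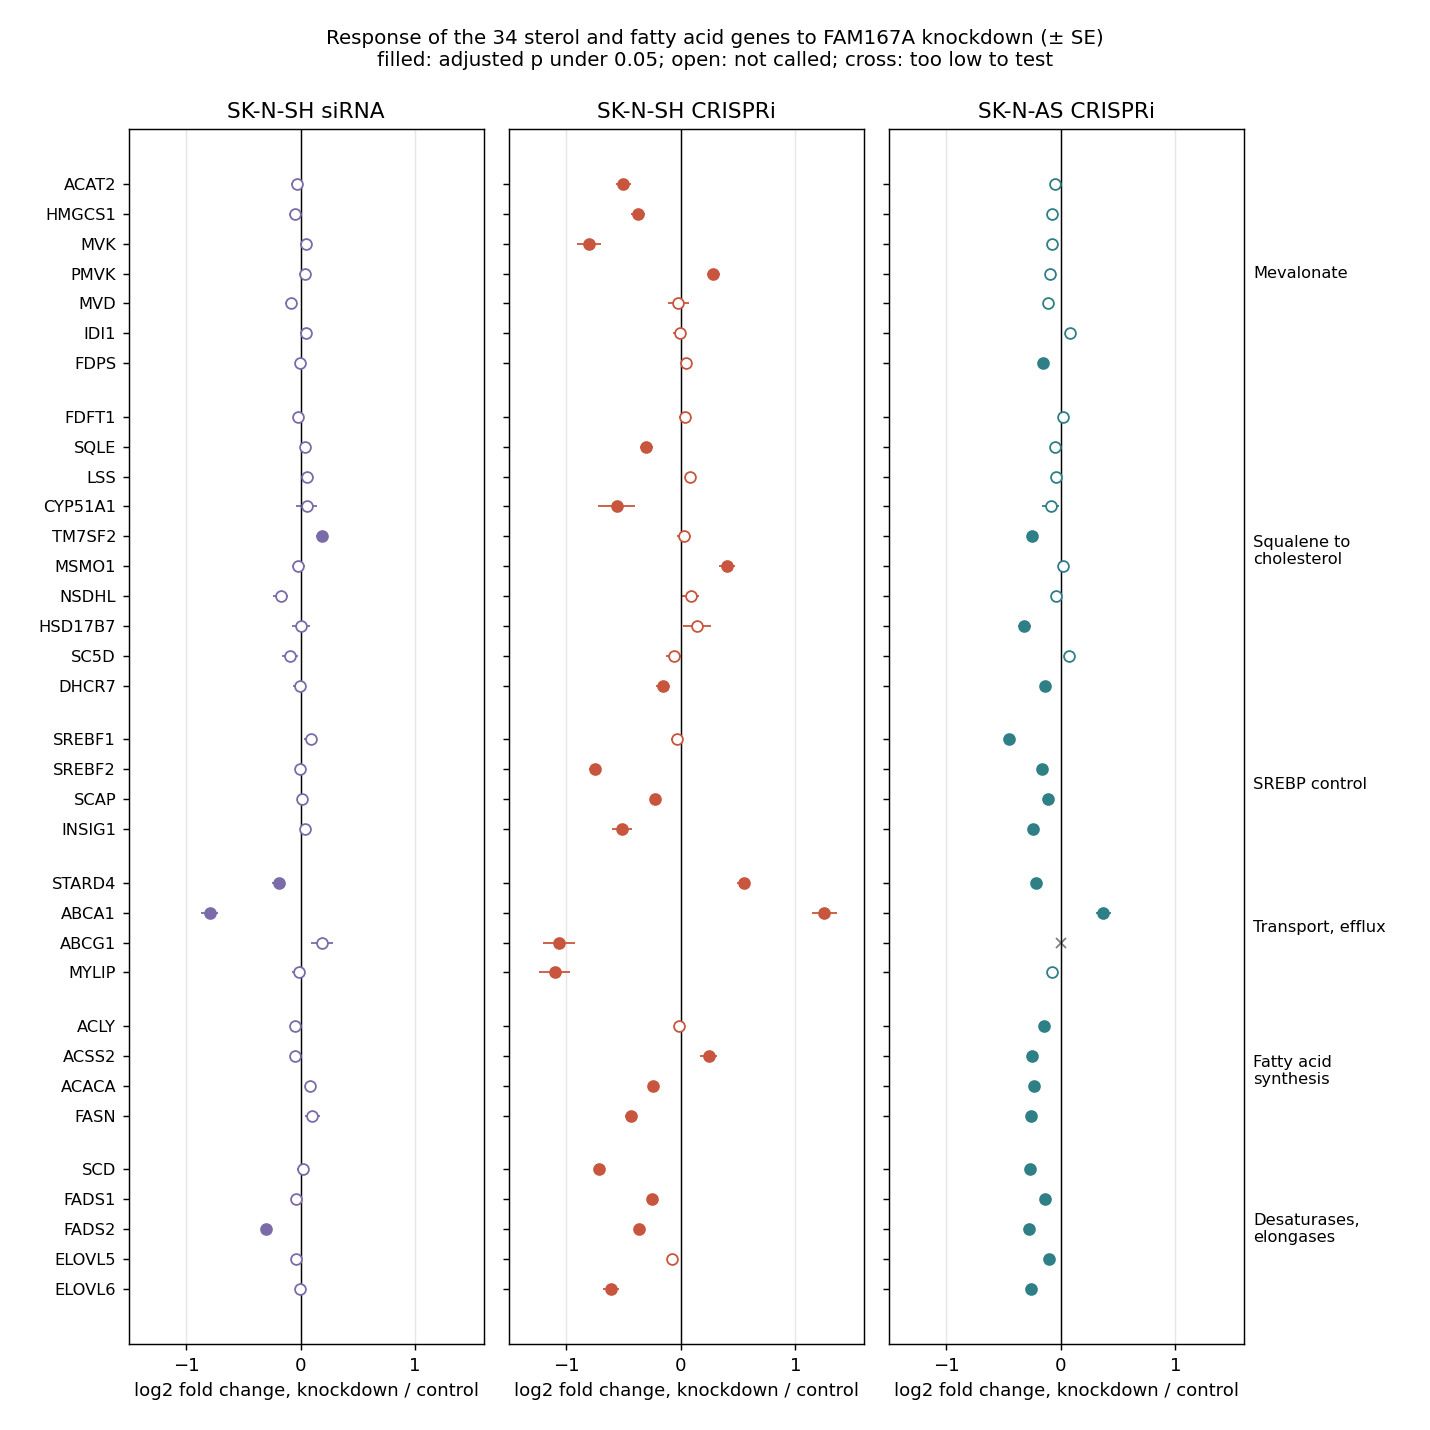
The log2 fold change (x axis, knockdown over control, ± SE) of each of the 34 genes (y axis, by role) in the 3 experiments; filled points were called at an adjusted p under 0.05 and the cross marks ABCG1, too low to test. After siRNA ABCA1, FADS2, STARD4 and TM7SF2 are the filled points, and ABCG1 and NSDHL lie about as far from 0 as TM7SF2 without being called; the 9 fatty acid genes all lie left of 0 in SK-N-AS; and SK-N-SH CRISPRi has the widest spread, from MYLIP at -1.10 to ABCA1 at 1.25.

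The regulators of the pathway fell under CRISPRi in both lines. All 4 regulators of the list (SREBF1, SREBF2, SCAP and INSIG1) fell in SK-N-AS, where 15.5% of all genes fell. In SK-N-SH CRISPRi 3 of the 4 fell, the exception being SREBF1, and 28.0% of all genes fell there. None of the 4 was called after siRNA by edgeR or DESeq2, and 0 of 4 had an unadjusted p under 0.05. SREBF2, which encodes the SREBP that mainly drives sterol genes, measured 82.3, 81.7 and 79.8 CPM in the SK-N-SH sgGal4 libraries and 47.9, 49.6 and 47.1 CPM in the sgDIORA1 libraries. The groups were far apart, a log2 fold change of -0.75 ± 0.051 (SE; edgeR adjusted p = 1.09e-15), by which the fitted level fell by 40.6%. The fall in SK-N-AS was smaller: SREBF2 measured 199.7, 187, 187 and 197 CPM in controls and 173, 177, 172 and 167 CPM in knockdown libraries. These groups did not overlap either (log2 fold change -0.16 ± 0.029, edgeR adjusted p = 3.64e-05). With siRNA SREBF2 spanned 163 to 175 CPM in controls and 158 to 177 CPM in knockdown libraries, ranges that overlapped (log2 fold change -0.0017 ± 0.039).

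SREBF1, which encodes the SREBP proteins best known for fatty acid genes, differed between the lines. In SK-N-AS it measured 86.3, 80.4, 84.2 and 91.5 CPM in controls and 63.7, 64.9, 62.2 and 59.4 CPM in knockdown libraries. Every knockdown library was below every control, and the fall was the largest of the 33 tested genes in that line (log2 fold change -0.45 ± 0.037, edgeR adjusted p = 4.42e-12). In SK-N-SH CRISPRi, SREBF1 measured 79.4, 66.6 and 71.2 CPM and 71.7, 72.5 and 67.3 CPM, and the groups overlapped (log2 fold change -0.033 ± 0.055). The siRNA libraries overlapped as well, at 63.9 to 72.4 CPM in controls and 64.01 to 79.98 CPM after knockdown.

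INSIG1, the membrane protein that retains the SCAP and SREBP complex and is itself a classic SREBP target, fell in both lines. It measured 19.3, 19.2 and 17.99 CPM in SK-N-SH sgGal4 libraries and 12.5, 13.4 and 13.5 CPM with sgDIORA1. The SK-N-AS values were 82.2, 81.3, 81.7 and 87.3 CPM in controls and 71.3, 67.7, 71.9 and 70.1 CPM after knockdown. The groups were apart in both lines, with log2 fold changes of -0.51 ± 0.089 and -0.24 ± 0.034 (edgeR adjusted p = 6.57e-06 and 4.86e-07). SCAP, the escort of the SREBPs, measured 108, 94.6 and 105 CPM in SK-N-SH controls and 89.6, 85.7 and 88.3 CPM with sgDIORA1. SCAP in SK-N-AS measured 67.5, 59.3, 64.7 and 70.2 CPM and 62.7, 62.2, 59.4 and 58.6 CPM. The SK-N-SH groups were apart and the SK-N-AS groups overlapped, with log2 fold changes of -0.22 ± 0.049 and -0.11 ± 0.041 (edgeR adjusted p = 1.70e-04 and 0.0342). The SK-N-AS call for SCAP was lost with DESeq2 (adjusted p = 0.0650) and without knockdown library 3 or 4 or control library 1, 3 or 4. After siRNA INSIG1 spanned 35.2 to 40.3 CPM in controls and 38.3 to 40.8 CPM in knockdown libraries, and SCAP 149 to 164 and 149 to 174 CPM; neither was called.

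**Figure D2:**
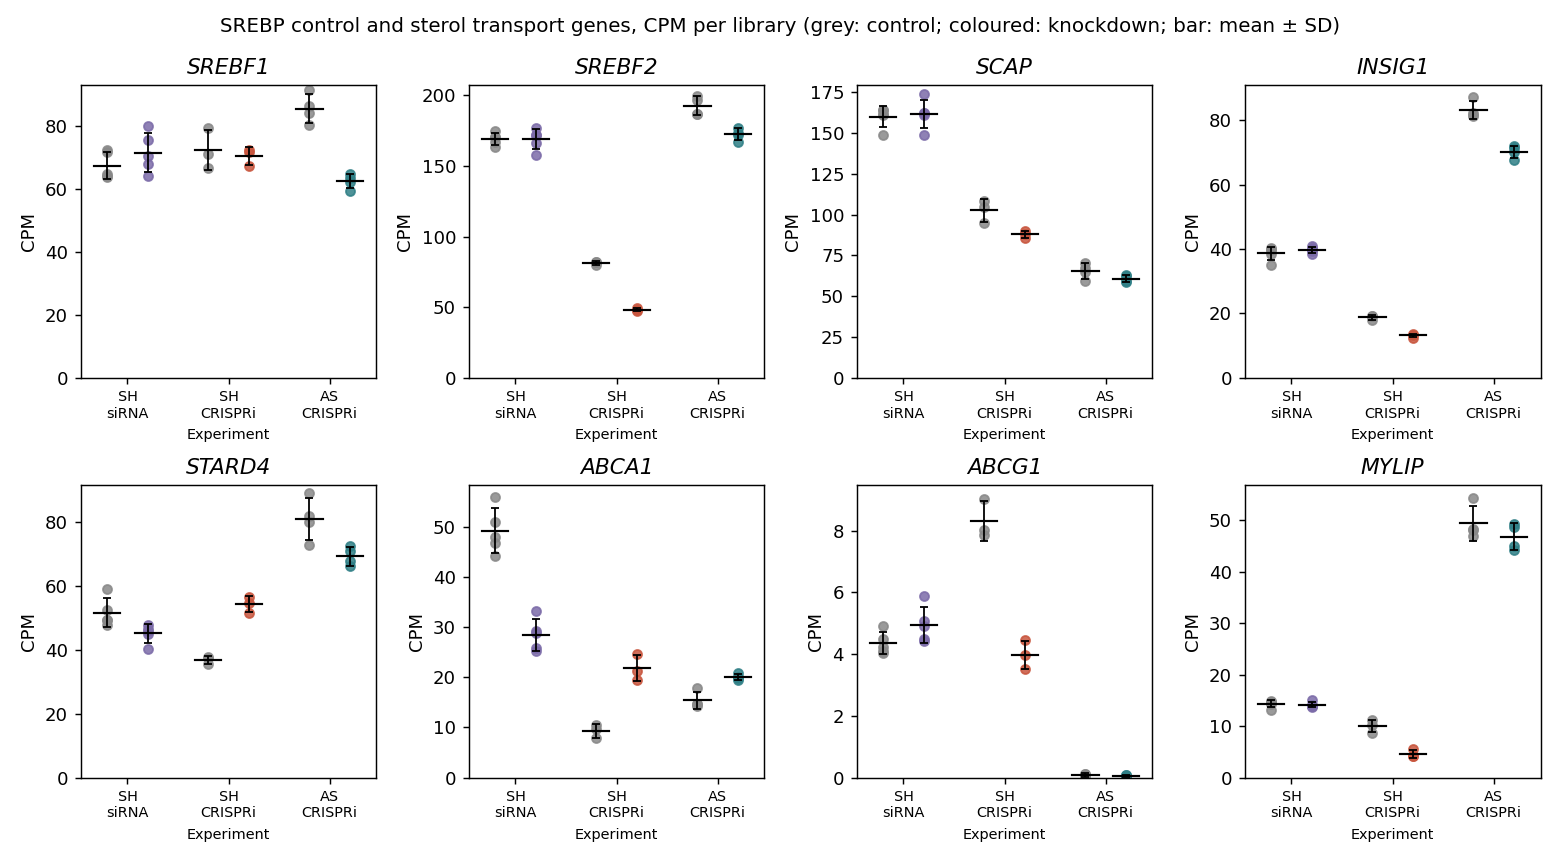
CPM (y axis, linear from 0) of the 4 SREBP control genes and the 4 sterol transport genes in every library of each experiment (x axis); grey points are control and coloured points knockdown libraries, and bars give the mean ± SD. SREBF2 drops in SK-N-SH CRISPRi, SREBF1 in SK-N-AS, and ABCA1 goes down after siRNA and up under CRISPRi.

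RefSeq promoter windows of GRCh38.p14, from 250 bases before to 50 bases after a start site, were found for 29 of the 34 genes (39 windows); ABCG1, ACAT2, FASN, FDFT1 and SQLE had no window in the table used. The 250 bases before the start are given for 4 genes. SREBF2 is the 1 gene of the 29 with a sterol regulatory element core in its window, INSIG1 and SCD fell under CRISPRi in both lines, and MVK had the largest fall of the mevalonate group. They lie at chr22:41832855-41833104 (SREBF2), chr7:155297628-155297877 (INSIG1), chr10:100346983-100347232 (SCD) and chr12:109573544-109573793 (MVK), all on the plus strand. Capitals mark the sterol element core TCACNCCAC and the CCAAT box on either strand (ATTGG on the minus strand).
SREBF2: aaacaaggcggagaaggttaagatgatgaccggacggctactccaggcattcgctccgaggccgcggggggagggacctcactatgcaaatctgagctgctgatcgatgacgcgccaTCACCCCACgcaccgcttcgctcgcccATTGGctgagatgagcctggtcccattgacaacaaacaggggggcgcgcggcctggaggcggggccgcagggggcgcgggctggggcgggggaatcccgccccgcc
INSIG1: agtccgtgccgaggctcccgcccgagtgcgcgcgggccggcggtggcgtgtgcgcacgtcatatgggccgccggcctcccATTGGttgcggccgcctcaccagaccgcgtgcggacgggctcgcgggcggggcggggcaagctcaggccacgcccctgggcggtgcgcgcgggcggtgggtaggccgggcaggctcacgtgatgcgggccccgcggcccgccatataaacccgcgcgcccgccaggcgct
SCD: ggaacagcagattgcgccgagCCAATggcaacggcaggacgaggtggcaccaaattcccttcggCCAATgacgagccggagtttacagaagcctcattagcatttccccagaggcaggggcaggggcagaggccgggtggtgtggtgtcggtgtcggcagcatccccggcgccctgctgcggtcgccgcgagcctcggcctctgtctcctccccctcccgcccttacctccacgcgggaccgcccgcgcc
MVK: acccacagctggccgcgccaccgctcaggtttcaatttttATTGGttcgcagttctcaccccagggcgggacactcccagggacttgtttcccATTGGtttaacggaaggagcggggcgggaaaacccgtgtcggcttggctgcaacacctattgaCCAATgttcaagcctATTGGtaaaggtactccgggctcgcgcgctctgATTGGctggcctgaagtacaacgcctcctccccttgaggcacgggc

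The sterol element core TCACNCCAC, searched on both strands, begins 133 bases before the SREBF2 start and occurs in 1.13% of all 35116 windows of the same length. It was found in no window of the remaining genes. The CCAAT box, known to bind NF-Y, a partner of the SREBPs, was in the windows of 22 of the 29 genes (26 of 39 windows), where 34.6% of all windows hold it. MVK had 5 of them, SCD a pair, and SREBF2 and INSIG1 1 each in the stretches shown. The GC box GGGCGG was in the windows of 27 of 29 genes (34 of 39 windows, and 45.0% of all windows), and the E-box CACGTG, the same on both strands, in those of 6 of 29 (7 of 39 windows, and 7.26% of all windows). Of the genes that fell in both lines, SCAP, FADS1 and ELOVL6 had no CCAAT box in their windows, while LSS, NSDHL, MVD, IDI1 and SC5D, called in no experiment, had one. A match describes these letters and is not a measured binding site, and nothing follows about a factor where no match was found.

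The mevalonate genes went both ways in SK-N-SH CRISPRi, with 57.1% called, near the 55.8% of all genes. They hardly moved elsewhere, with 14.3% called in SK-N-AS, where 30.6% of all genes were. Of 7 genes, ACAT2, HMGCS1 and MVK fell and PMVK rose in SK-N-SH CRISPRi, FDPS fell in SK-N-AS, and none was called after siRNA (edgeR; 0 of 7 at an unadjusted p under 0.05 and 0 with DESeq2). MVK, mevalonate kinase, measured 13.2, 15.7 and 15.7 CPM in SK-N-SH sgGal4 libraries and 9.29, 8.10 and 8.49 CPM with sgDIORA1. The groups did not overlap (log2 fold change -0.80 ± 0.11, edgeR adjusted p = 3.39e-08). SK-N-AS libraries held 104, 95.9, 97.96 and 99.9 CPM and 99.1, 96.2, 89.7 and 92.3 CPM, overlapping ranges with a log2 fold change of -0.075 ± 0.034 (edgeR adjusted p = 0.0963). ACAT2, the cytosolic thiolase that joins acetyl-CoA units, went from 44.7 ± 3.23 to 31.7 ± 1.18 CPM (SD, n = 3 and 3) in SK-N-SH CRISPRi, and HMGCS1, the synthase that follows it, from 47.98 ± 1.44 to 36.9 ± 1.46 CPM. Their log2 fold changes were -0.50 ± 0.064 and -0.37 ± 0.06 (edgeR adjusted p = 2.19e-08 and 1.28e-06).

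PMVK, phosphomevalonate kinase and the enzyme after MVK, went the other way in the same libraries. It rose from 35.1 ± 0.215 to 42.8 ± 0.749 CPM (log2 fold change 0.29 ± 0.06, edgeR adjusted p = 1.04e-04). FDPS, farnesyl pyrophosphate synthase, measured 305, 286, 291 and 294 CPM in SK-N-AS controls and 269, 266, 265 and 255 CPM after knockdown. Its SK-N-AS groups were apart (log2 fold change -0.16 ± 0.027, edgeR adjusted p = 1.63e-05), and in SK-N-SH CRISPRi the value was 0.048 ± 0.044. MVD, the decarboxylase, and IDI1, the isopentenyl isomerase, were not called anywhere; across the 3 experiments their log2 fold changes lay between -0.11 and 0.085. After siRNA the 7 genes lay between -0.083 and 0.047. Exons of ACAT2, FDPS, HMGCS1 and IDI1 overlap a gene on the opposite strand over 14.8% to 33.9% of their length in GENCODE 29, and FDPS has 8 named pseudogenes; whether reads were counted by strand is not stated, so these counts are uncertain.

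From squalene to cholesterol, 4 of the 10 genes were called in SK-N-SH CRISPRi, where 55.8% of all genes were. In SK-N-AS 3 were called, where 30.6% of all genes were. After siRNA 1 was called, where 9.53% of all genes were. The shares in SK-N-AS and after siRNA were thus near those of all genes. SK-N-SH CRISPRi had SQLE, CYP51A1 and DHCR7 down and MSMO1 up, SK-N-AS had HSD17B7, TM7SF2 and DHCR7 down, and siRNA had TM7SF2 up. The summed CPM of the 17 mevalonate and cholesterol genes were 717 to 731 in SK-N-SH sgGal4 and 703 to 708 in sgDIORA1 libraries, and 2018 to 2055 and 1957 to 1989 in SK-N-AS. In both lines the sums stood apart by a few percent. DHCR7, the reductase of the last step, was the gene of this group that fell in both lines. In SK-N-SH CRISPRi it measured 41.1, 40.6 and 44.5 CPM in controls and 36.6, 39.1 and 38.3 CPM in knockdown libraries. Its SK-N-AS levels were 147, 136, 141 and 140.1 CPM and 131, 129, 128 and 125 CPM. Neither pair of groups overlapped, with log2 fold changes of -0.15 ± 0.061 and -0.14 ± 0.03 (edgeR adjusted p = 0.0309 and 4.21e-04). The SK-N-SH call for DHCR7 was lost with DESeq2 (adjusted p = 0.181), with no filter on low counts (edgeR adjusted p = 0.11) and without knockdown library 1 or 3 or control library 3.

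TM7SF2, a sterol reductase that acts just after CYP51A1, took opposite signs in siRNA and SK-N-AS. After siRNA it measured 48.4, 56.7, 52.7, 51.1 and 56.6 CPM, and 43.7, 48.3, 48.1, 49.3 and 44.2 CPM in the controls. These groups overlapped, although the fitted level rose by 13.7% (log2 fold change 0.19 ± 0.051, edgeR adjusted p = 0.0211). The call was lost without knockdown library 2 or 5 or control library 1 (adjusted p = 0.0782, 0.0615 and 0.0903). In SK-N-AS TM7SF2 measured 38.1, 35.1, 34.1 and 37.2 CPM in controls and 30.6, 32.3, 29.3 and 29.2 CPM after knockdown. These groups were apart, and the fitted level fell by 15.9% (log2 fold change -0.25 ± 0.046, edgeR adjusted p = 5.42e-05). In SK-N-SH CRISPRi its log2 fold change was 0.028 ± 0.061, not called.

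HSD17B7, a ketoreductase of the sterol ring, measured 19.3, 17.99, 19.4 and 18.3 CPM in SK-N-AS controls and 15.4, 15.5, 15.5 and 13.8 CPM after knockdown. It was the largest fall of the group in that line (log2 fold change -0.32 ± 0.056, edgeR adjusted p = 2.58e-05), and it has 2 named pseudogenes. CYP51A1, the lanosterol demethylase, measured 6.95, 4.55 and 6.17 CPM in SK-N-SH sgGal4 libraries and 4.25, 4.32 and 3.39 CPM with sgDIORA1. The groups were apart but close, and its log2 fold change was -0.56 ± 0.16 (edgeR adjusted p = 0.00366). CYP51A1 shares 79.4% of its exonic bases with a second protein-coding gene model on the same strand, so its low counts are uncertain.

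SQLE, squalene epoxidase and a known control point of the pathway, went from 53.8 ± 2.52 to 43.8 ± 0.628 CPM in SK-N-SH CRISPRi (log2 fold change -0.30 ± 0.056, edgeR adjusted p = 2.14e-05). MSMO1, the methylsterol oxidase, rose there from 26.5 ± 2.19 to 35.3 ± 0.492 CPM (log2 fold change 0.41 ± 0.07, edgeR adjusted p = 4.58e-06). MSMO1 thus rose in the libraries in which SQLE and CYP51A1 fell. FDFT1 (squalene synthase), LSS (lanosterol synthase), NSDHL (a sterol dehydrogenase) and SC5D (a sterol desaturase) were not called in any experiment. Their log2 fold changes lay between -0.17 (NSDHL after siRNA) and 0.088 (NSDHL in SK-N-SH CRISPRi). FDFT1 lies 320 kb from FAM167A on the same chromosome, and its log2 fold changes were -0.022 ± 0.04, 0.035 ± 0.047 and 0.018 ± 0.025 in siRNA, SK-N-SH CRISPRi and SK-N-AS.

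Sterol transport and efflux held the largest changes of the 34 genes in both SK-N-SH experiments, and these changes differed by experiment. In SK-N-AS the regulator SREBF1 changed most (log2 fold change -0.45). ABCA1, which hands cellular cholesterol and phospholipid to lipid-poor apolipoprotein, was called in all 3 experiments. After siRNA it measured 25.2, 29.3, 33.2, 28.8 and 25.8 CPM, below all 5 controls at 51.1, 44.3, 48.1, 56.01 and 46.7 CPM. In SK-N-SH CRISPRi it measured 10.5, 9.70 and 7.80 CPM in controls and 21.3, 24.6 and 19.5 CPM in knockdown libraries. For SK-N-AS the values were 14.2, 14.8, 17.9 and 14.7 CPM and 19.5, 20.1, 20.8 and 19.9 CPM. No pair of groups overlapped: ABCA1 was lower in all 5 siRNA libraries and higher in all 3 and all 4 CRISPRi knockdown libraries. The log2 fold changes were -0.79 ± 0.074, 1.25 ± 0.11 and 0.37 ± 0.062 (edgeR adjusted p = 8.41e-07, 4.67e-12 and 9.37e-06), or 1.73-fold down, 2.38-fold up and 1.30-fold up. The control levels differed too, at 49.2 CPM in siRNA controls and 9.34 CPM in sgGal4 controls of the same line; these come from tables made separately.

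STARD4, a soluble carrier that moves cholesterol between membranes and a known SREBP target, was called in all 3 experiments as well. It measured 35.6, 37.4 and 37.9 CPM in SK-N-SH sgGal4 libraries and 56.5, 54.7 and 51.6 CPM with sgDIORA1. In SK-N-AS it measured 72.9, 89.1, 80.1 and 81.8 CPM in controls and 67.7, 66.1, 70.8 and 72.6 CPM after knockdown. After siRNA it measured 47.9, 40.3, 45.1, 45.9 and 46.7 CPM, with controls at 52.6, 49.2, 59.04, 47.9 and 49.3 CPM. STARD4 rose in SK-N-SH CRISPRi and fell in SK-N-AS with groups apart in both, and the siRNA groups touched at 47.9 CPM. The log2 fold changes were 0.55 ± 0.059, -0.22 ± 0.043 and -0.19 ± 0.057 (edgeR adjusted p = 2.70e-10, 1.64e-04 and 0.0342). The siRNA call was lost without knockdown library 2 or 3, without control library 1 or 3, without knockdown libraries 3 and 4 together, and with upper quartile scaling or library sizes alone (adjusted p 0.0683 to 0.142).

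ABCG1, which exports cholesterol to mature lipoprotein particles, went from 8.31 ± 0.641 to 3.97 ± 0.469 CPM (SD, n = 3 and 3) in SK-N-SH CRISPRi. MYLIP, the ubiquitin ligase that sends lipoprotein receptors for degradation, went from 10.02 ± 1.22 to 4.61 ± 0.768 CPM. Both fell by more than 2-fold (log2 fold changes -1.06 ± 0.14 and -1.10 ± 0.14, edgeR adjusted p = 4.06e-08 and 1.22e-08) in the libraries in which ABCA1 rose. These 3 genes are all textbook LXR targets, and in these libraries they did not move together. MYLIP was not called in SK-N-AS or after siRNA (log2 fold changes -0.075 ± 0.045 and -0.018 ± 0.058), nor was ABCG1 after siRNA (0.19 ± 0.10).

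Fatty acid genes fell together in SK-N-AS and, for the most part, in SK-N-SH CRISPRi. All 9 (the 4 of synthesis and the 5 desaturases and elongases) fell in SK-N-AS, and in 8 of the 9 no knockdown library reached the lowest control, where 14.6% of all tested genes lay wholly below. In SK-N-SH CRISPRi 6 of 9 fell and ACSS2 rose, with the 6 wholly below their controls, where 30.5% of all tested genes were. After siRNA only FADS2 was called. The median log2 fold change of the 9 was -0.25 in both CRISPRi sets and -0.04 after siRNA. Their summed CPM were 4528 to 4659 in SK-N-AS controls and 3870 to 3933 after knockdown, and 1736 to 1831 and 1407 to 1478 in SK-N-SH CRISPRi. The siRNA sums overlapped, at 2663 to 2864 CPM in controls and 2698 to 2882 CPM after knockdown.

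FASN, the synthase that builds palmitate, measured 1446, 1337, 1329 and 1422 CPM in SK-N-AS controls and 1179, 1187, 1110.2 and 1133 CPM after knockdown. In SK-N-SH CRISPRi it measured 496, 413 and 442 CPM and 342, 338 and 320.2 CPM. Knockdown libraries were below all controls in both lines, with log2 fold changes of -0.26 ± 0.027 and -0.43 ± 0.051 (edgeR adjusted p = 5.83e-10 and 2.26e-07). After siRNA FASN spanned 793 to 946 CPM in controls and 808 to 1025 CPM in knockdown libraries, its 2 highest values being those of knockdown libraries 3 and 4. ACACA, the carboxylase that makes malonyl-CoA for FASN, measured 173, 169, 176 and 168 CPM in SK-N-AS controls and 140.2, 149, 151 and 143 CPM after knockdown. In SK-N-SH CRISPRi ACACA measured 123, 118 and 117 CPM and 100.1, 107 and 96.1 CPM. Its groups were also apart in both lines (log2 fold changes -0.23 ± 0.029 and -0.24 ± 0.046, edgeR adjusted p = 6.46e-08 and 2.54e-05).

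The enzymes that supply acetyl-CoA behaved differently between the lines. ACSS2, which makes it from acetate, measured 59.9, 55.4, 61.3 and 60.4 CPM in SK-N-AS controls and 52.8, 49.3, 48.3 and 49.3 CPM after knockdown. In SK-N-SH CRISPRi ACSS2 measured 25.1, 23.6 and 23.7 CPM and 27.99, 30.6 and 26.95 CPM. It fell in every SK-N-AS and rose in every SK-N-SH knockdown library (log2 fold changes -0.25 ± 0.039 and 0.24 ± 0.073, edgeR adjusted p = 3.46e-06 and 0.00452). The SK-N-SH call was lost with library sizes alone (adjusted p = 0.175). ACLY, which makes it from citrate, fell in SK-N-AS from 634 ± 7.21 to 574 ± 5.39 CPM (SD, n = 4 and 4; log2 fold change -0.14 ± 0.023, edgeR adjusted p = 4.19e-06) and was not called in SK-N-SH CRISPRi (-0.017 ± 0.038) or after siRNA (-0.05 ± 0.041).

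SCD, the desaturase that makes oleate and palmitoleate, had the largest fall of the desaturases and elongases in SK-N-SH CRISPRi. It measured 271, 274 and 258 CPM in sgGal4 libraries and 159, 167 and 163 CPM with sgDIORA1. The SK-N-AS values were 977, 971, 1004 and 978 CPM in controls and 807, 811, 825 and 823 CPM after knockdown. Both pairs of groups were far apart compared with their spread (log2 fold changes -0.71 ± 0.04 and -0.27 ± 0.022, edgeR adjusted p = 6.82e-18 and 4.91e-12). By these values SCD fell by 38.97% in SK-N-SH and fell by 16.9% in SK-N-AS. After siRNA SCD spanned 514 to 573 CPM in controls and 492 to 590.1 CPM in knockdown libraries, ranges that overlapped.

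FADS2, the desaturase that starts long polyunsaturated fatty acid synthesis, was the 1 gene of the 34 that fell in all 3 experiments. After siRNA it measured 213, 223, 198, 194 and 217 CPM, below all controls at 245, 269, 249, 255 and 269 CPM. In SK-N-SH CRISPRi it measured 211, 193 and 209 CPM in controls and 162, 161 and 154 CPM in knockdown libraries. SK-N-AS libraries held 708, 677, 666 and 678 CPM and 571, 568, 555 and 558 CPM. No pair of groups overlapped, and the falls were -0.30 ± 0.045, -0.36 ± 0.042 and -0.28 ± 0.024 on the log2 scale (edgeR adjusted p = 5.28e-05, 2.18e-09 and 1.22e-11). How many of all genes fell, or lay wholly below their controls, in all 3 experiments was not counted.

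FADS1, the desaturase that acts after FADS2 and lies beside it in the genome, measured 133, 140.4 and 139.7 CPM in SK-N-SH sgGal4 libraries and 113, 119 and 115 CPM with sgDIORA1. Its SK-N-AS levels were 341, 341, 345 and 338 CPM and 304, 312, 310.1 and 313 CPM. The groups were apart in both lines (log2 fold changes -0.25 ± 0.043 and -0.14 ± 0.024, edgeR adjusted p = 3.91e-06 and 1.65e-05), while after siRNA FADS1 was not called (-0.036 ± 0.046). ELOVL6, which elongates palmitate to stearate, measured 44.2, 52.4 and 41.8 CPM in SK-N-SH sgGal4 libraries and 30.9, 29.6 and 29.9 CPM with sgDIORA1. In SK-N-AS ELOVL6 measured 135, 147, 141 and 137 CPM and 116, 116, 117 and 117 CPM. It fell in both, with log2 fold changes of -0.61 ± 0.071 and -0.26 ± 0.03 (edgeR adjusted p = 8.13e-09 and 1.04e-08). ELOVL5, which elongates polyunsaturated fatty acids, fell by 6.80% in SK-N-AS with overlapping groups (log2 fold change -0.10 ± 0.029, edgeR adjusted p = 0.00576; 0.0560 without knockdown library 2) and was not called in SK-N-SH CRISPRi (-0.072 ± 0.045).

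**Figure D3:**
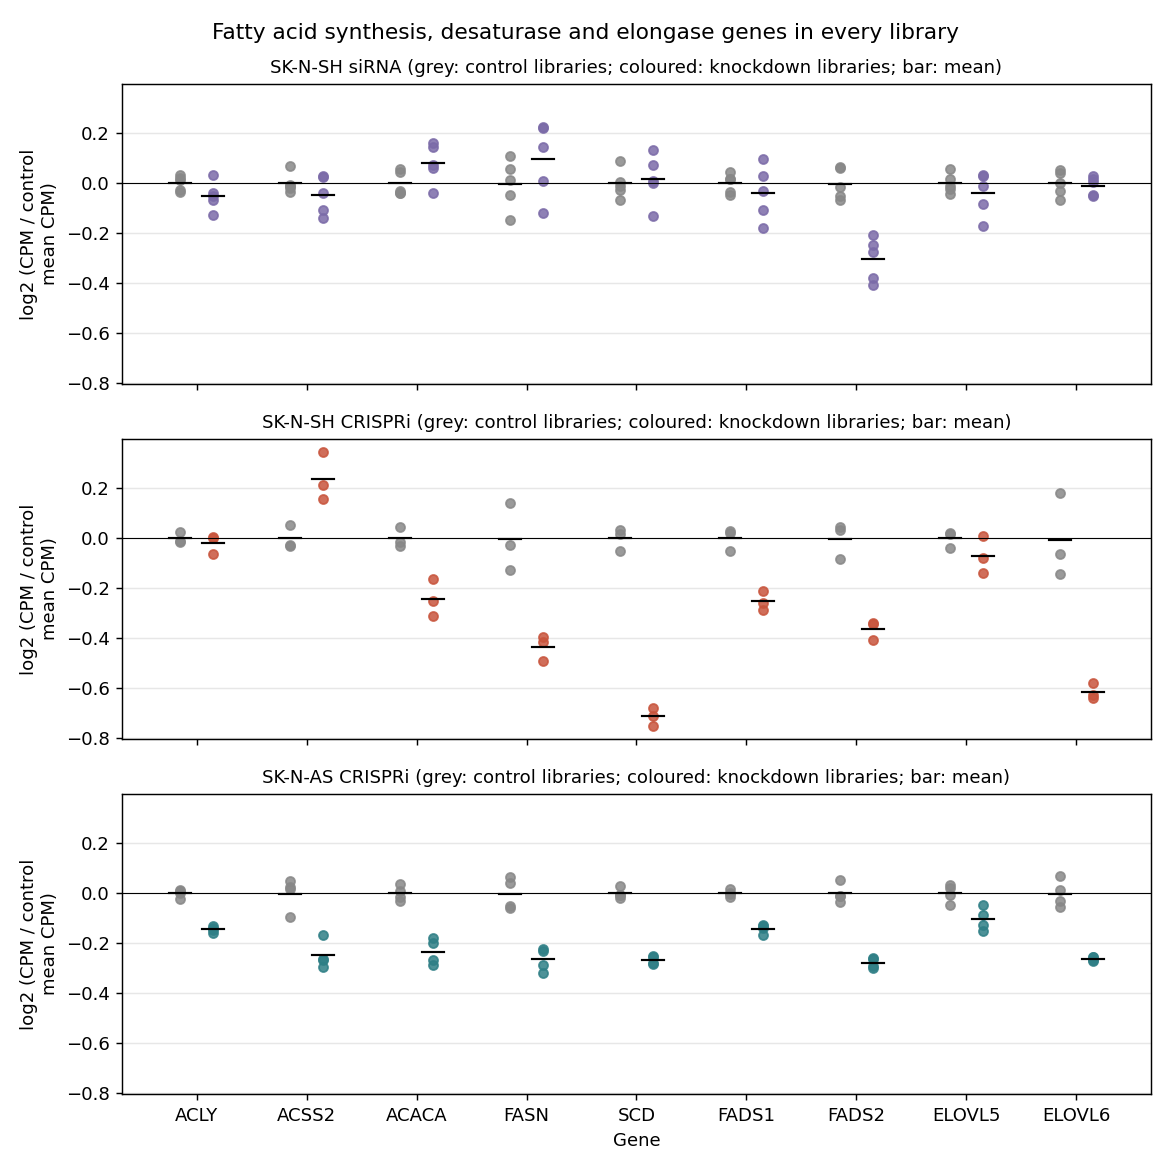
The 9 fatty acid genes (x axis) in every library, as log2 of CPM over the mean CPM of the experiment's own controls (y axis); grey points are controls, coloured points knockdown libraries and bars group means. In SK-N-AS all 9 knockdown means lie below 0, in SK-N-SH CRISPRi ACSS2 stands above and SCD and ELOVL6 lowest, and after siRNA FADS2 alone is clear of its controls.

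Per kilobase of exon, SCD, FASN and ACLY were the 3 most abundant of the 34 genes in every control group. In SK-N-AS controls they stood at 183, 148 and 122 CPM per kb, in SK-N-SH sgGal4 controls at 49.9, 48.1 and 78.6, and in siRNA controls at 100.4, 93.7 and 89.00. ABCG1 was the lowest in siRNA and SK-N-AS controls, at 0.712 and 0.0137 CPM per kb, and ABCA1 in sgGal4 controls of SK-N-SH at 0.822. These levels are set beside each other across separately made tables and were not tested.

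The CRISPRi experiments share no library, and their calls are set side by side here. Both used the guides sgDIORA1 and sgGal4, so effects of the guides themselves and of FAM167A loss cannot be told apart. Of 33 genes tested in both lines, 10 fell in both, 30.3%, where 10.3% of all 14236 genes tested in both did. They are SREBF2, SCAP, INSIG1, DHCR7, ACACA, FASN, SCD, FADS1, FADS2 and ELOVL6: 3 regulators, 1 cholesterol enzyme and 6 fatty acid enzymes. They make up 62.5% of the genes that fell in SK-N-SH CRISPRi and were tested in both, and 55.6% of those that fell in SK-N-AS. ABCA1 alone rose in both (9.75% of all genes did), and STARD4 and ACSS2 were called in opposite directions (5.68% of all genes).

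A test of the difference between the lines' responses, as an interaction in edgeR over both experiments, called 20 of 34 genes, 58.8%, where 30.7% of 19862 genes differed. The SK-N-SH response was the lower for 10 of them and the higher for 10, where 14.7% and 16.0% of all genes were. The differences in log2 fold change, SK-N-SH minus SK-N-AS, were -1.01 ± 0.14 for MYLIP, -0.72 ± 0.10 for MVK, -0.58 ± 0.058 for SREBF2 and -0.43 ± 0.044 for SCD (SE; edgeR adjusted p = 1.19e-07, 1.69e-07, 1.40e-11 and 3.21e-11). These 4 genes fell more in SK-N-SH. STARD4 (0.78 ± 0.077), ACSS2 (0.51 ± 0.081) and SREBF1 (0.43 ± 0.069) were on the other side, with adjusted p of 1.83e-11, 1.58e-06 and 1.49e-06 by edgeR, and ABCA1 rose more in SK-N-SH (0.89 ± 0.13, edgeR adjusted p = 2.34e-07). No difference was called for FADS2 (-0.071 ± 0.048), ACACA (0.0079 ± 0.055), FADS1 (-0.10 ± 0.048), DHCR7 (-0.0062 ± 0.066) or SCAP (-0.10 ± 0.068), which fell in both lines. FAM167A itself fell further in SK-N-SH, and the lines, depths and marker shifts differ as well; their part in these differences was not tested.

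**Figure D4:**
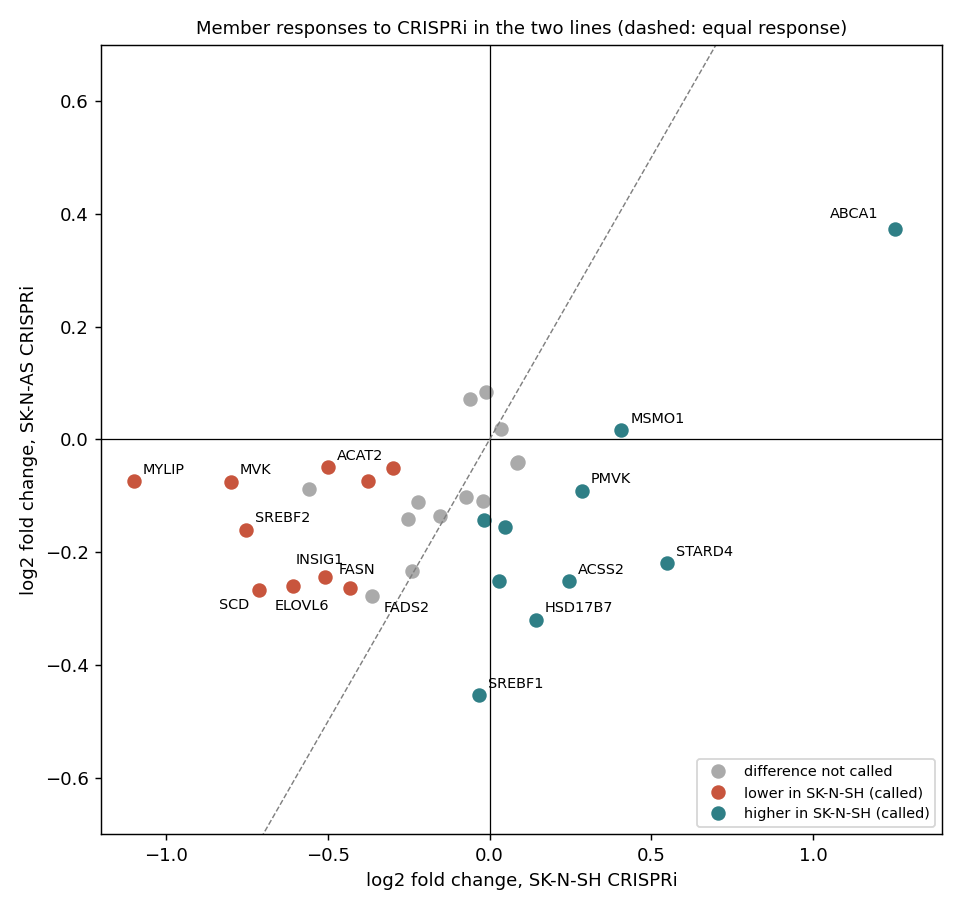
The log2 fold change under CRISPRi in SK-N-SH (x axis) and SK-N-AS (y axis) of the 33 genes tested in both lines; colours give the interaction call and the dashed line marks equal response (the axes have different scales). Genes that fell in both lines sit lower left, ABCA1 alone is far in the upper right, and STARD4 and ACSS2 lie lower right.

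Within SK-N-SH, siRNA and CRISPRi gave different responses for many of the 34 genes. The interaction in edgeR called 20 of 34, 58.8%, where 31.4% of 23287 genes differed; the CRISPRi response was the lower for 15 and the higher for 5, where 16.4% and 15.1% of all genes were. This comparison uses the same SK-N-SH CRISPRi libraries as the one between lines, so the 2 sets of differences are not independent. The largest difference was in ABCA1, 2.03 ± 0.16 in log2 fold change, CRISPRi minus siRNA (SE; edgeR adjusted p = 4.89e-10), as it rose in 1 experiment and fell in the other. Next came ABCG1 (-1.26 ± 0.18), MYLIP (-1.10 ± 0.14), MVK (-0.85 ± 0.12), SREBF2 (-0.76 ± 0.066), SCD (-0.74 ± 0.073) and STARD4 (0.73 ± 0.10), with edgeR adjusted p of 8.48e-07, 1.20e-07, 2.71e-07, 1.36e-11, 3.09e-10 and 1.32e-07. FADS2 did not differ by this test (-0.071 ± 0.071, edgeR adjusted p = 0.521). The knockdown was deeper with CRISPRi, the mesenchymal markers moved in opposite directions in the 2 experiments, and the libraries were prepared with different kits; the method and these cannot be told apart.

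Beyond the 34 genes, 93 further lipid genes in 7 lists were read in the same fits. Over all genes, 9.53% were called after siRNA, 55.8% in SK-N-SH CRISPRi and 30.6% in SK-N-AS. Some list shares lay near these, and no list was tested as a set. Of 13 genes of sterol uptake, trafficking and storage, 4 fell after siRNA (30.8% called). In SK-N-SH CRISPRi 7 rose and 2 fell (69.2%), and in SK-N-AS 5 rose and 2 fell (53.8%). NPC2, which takes cholesterol out of lysosomes, had log2 fold changes of -0.31 ± 0.055, 0.48 ± 0.06 and 0.22 ± 0.034 in siRNA, SK-N-SH CRISPRi and SK-N-AS (edgeR adjusted p = 3.87e-04, 2.30e-07 and 3.44e-06), the same order of signs as ABCA1. GRAMD1B, which carries plasma membrane cholesterol to the endoplasmic reticulum, fell after siRNA (-0.58 ± 0.048, edgeR adjusted p = 9.66e-09) and rose in SK-N-AS (0.75 ± 0.065, adjusted p = 1.52e-11). After siRNA LIPA, the lysosomal acid lipase, and NPC1, the partner of NPC2, fell too (-0.30 ± 0.056 and -0.23 ± 0.048). LIPA was called up in SK-N-SH CRISPRi and NPC1 up in SK-N-AS. In SK-N-SH CRISPRi the receptors VLDLR and SCARB1 fell (-1.09 ± 0.071 and -0.46 ± 0.059), while SCARB1 was called up in SK-N-AS. CAV1, the caveolar scaffold, rose in SK-N-SH CRISPRi (0.64 ± 0.041) and fell in SK-N-AS (-1.15 ± 0.064), where GRAMD1A fell as well (-0.23 ± 0.031).

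Oxysterol and LXR genes gave 2 down of 9 tested after siRNA (22.2% called, beside 9.53% of all genes). In SK-N-SH CRISPRi 3 of 7 rose and 1 fell (57.1%, near the 55.8% of all genes). In SK-N-AS 5 of 8 rose (62.5%, beside 30.6%). NR1H2, which encodes an LXR, fell after siRNA (-0.16 ± 0.046) and rose in SK-N-SH CRISPRi (0.40 ± 0.047). SMPDL3A, a known LXR target at 2.14 CPM or less on average in every group, had log2 fold changes of -1.12 ± 0.27, 1.00 ± 0.31 and 0.68 ± 0.16 (edgeR adjusted p = 0.00788, 0.00558 and 0.00119), again down after siRNA and up under CRISPRi. RXRA, the partner of the LXRs, NR1H3, which encodes the other LXR, and LPCAT3 rose in SK-N-AS (0.53 ± 0.051, 0.37 ± 0.062 and 0.12 ± 0.038). RXRB rose (0.14 ± 0.051) and CYP7B1, an oxysterol hydroxylase, fell (-1.85 ± 0.25) in SK-N-SH CRISPRi.

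Of 11 other sterol enzymes and SREBP processing genes, 2 rose and 2 fell after siRNA (36.4% called, beside 9.53% of all genes). SK-N-SH CRISPRi had 3 up and 2 down (45.5%, beside 55.8%), and SK-N-AS 6 up and 2 down (72.7%, beside 30.6%). MBTPS1, the first protease that cuts SREBPs, fell after siRNA (-0.17 ± 0.038, edgeR adjusted p = 0.00355) and rose in SK-N-SH CRISPRi (0.34 ± 0.039, adjusted p = 2.11e-09), where MBTPS2, the second protease, also rose (0.46 ± 0.047). Both proteases were called up in SK-N-AS as well. ERLIN1 and ERLIN2, which bind SREBP complexes, rose in SK-N-AS (0.19 ± 0.03 and 0.19 ± 0.032); after siRNA ERLIN1 rose (0.17 ± 0.04) and ERLIN2 fell (-0.26 ± 0.041). LBR, whose sterol reductase activity overlaps that of TM7SF2, rose after siRNA (0.18 ± 0.048) and fell in SK-N-AS (-0.25 ± 0.034), as TM7SF2 did, and it also fell in SK-N-SH CRISPRi (-0.16 ± 0.047), where TM7SF2 was not called. CYB5R3, which supplies electrons to sterol and fatty acid oxidases, rose in both CRISPRi sets (0.63 ± 0.042 and 0.16 ± 0.036), and TMEM97 fell in SK-N-SH CRISPRi (-0.85 ± 0.058).

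Isoprenoid branch genes were little changed. None of 13 was called after siRNA by edgeR or DESeq2, and 0 of 13 had an unadjusted p under 0.05. RABGGTB (0.10 ± 0.049) and RABGGTA (-0.11 ± 0.062) had the smallest adjusted p there. In SK-N-SH CRISPRi 2 rose and 2 fell (30.8% called, beside 55.8% of all genes). In SK-N-AS 1 rose and 1 fell (15.4%, beside 30.6%). GGPS1, which makes the isoprenoid used for prenylation, rose in SK-N-SH CRISPRi (0.38 ± 0.071) and fell in SK-N-AS (-0.13 ± 0.048). PDSS1 and PDSS2, of ubiquinone synthesis, fell and ICMT rose in SK-N-SH CRISPRi (-0.33 ± 0.10, -0.43 ± 0.11 and 0.10 ± 0.042), and PGGT1B rose in SK-N-AS (0.16 ± 0.05).

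Other fatty acid synthesis genes did not share the fall of the 9 described above. Of 16 in SK-N-AS 4 rose and 2 fell (37.5% called, beside 30.6% of all genes). SK-N-SH CRISPRi had 6 up and 4 down of 15 (66.7%, beside 55.8%), and siRNA 3 down of 18 (16.7%, beside 9.53%). FADS3, a relative of FADS1 and FADS2 in the same gene cluster, rose in SK-N-AS (0.54 ± 0.039, edgeR adjusted p = 1.39e-13) and SK-N-SH CRISPRi (0.35 ± 0.058, adjusted p = 3.36e-06). SLC25A1, the citrate exporter of mitochondria, and ACACB, a second acetyl-CoA carboxylase, fell in SK-N-AS (-0.19 ± 0.033 and -0.29 ± 0.057), and ME1, a source of NADPH, rose (0.17 ± 0.035). ELOVL2 fell (-1.29 ± 0.12) and HACD2 and ELOVL4 rose (0.35 ± 0.045 and 0.54 ± 0.11) in SK-N-SH CRISPRi. After siRNA SCD5, ELOVL1 and MID1IP1 fell (-0.24 ± 0.053, -0.23 ± 0.05 and -0.17 ± 0.043). SCD5 was called up in both CRISPRi experiments and ELOVL1 up in SK-N-SH CRISPRi, where MID1IP1 was called down.

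Acyl-CoA and glycerolipid genes gave 3 up and 4 down of 14 after siRNA, 5 up and 4 down of 13 in SK-N-SH CRISPRi, and 4 up and 2 down of 13 in SK-N-AS. LPIN1, a phosphatidate phosphatase, fell in all 3 experiments (-0.16 ± 0.04, -0.60 ± 0.054 and -0.17 ± 0.034; edgeR adjusted p = 0.00972, 3.51e-12 and 2.38e-04). GPAM, the first enzyme of triglyceride synthesis, and ACSL1, an acyl-CoA synthetase, fell in SK-N-SH CRISPRi (-0.74 ± 0.064 and -0.63 ± 0.062) and rose in SK-N-AS (0.42 ± 0.032 and 0.38 ± 0.047). The lipid droplet gene PLIN2 fell after siRNA (-0.36 ± 0.055) and rose in SK-N-AS (0.21 ± 0.036). PLIN3 fell after siRNA (-0.27 ± 0.048) and rose in SK-N-SH CRISPRi (0.51 ± 0.048). DGAT1 rose after siRNA (0.22 ± 0.056) and was called down in SK-N-AS. Of the fatty acid oxidation genes 1 of 12 fell after siRNA (PPARA, -0.13 ± 0.041) and 1 of 13 in SK-N-AS (PPARGC1A, -0.85 ± 0.21). In SK-N-SH CRISPRi 5 of 11 fell, among them HADHA (-0.34 ± 0.042), HADH (-0.48 ± 0.06) and PPARD (-0.28 ± 0.071). There 2 rose, ACADVL (0.29 ± 0.04) among them. The shares called were 8.33%, 7.69% and 63.6% in this order, where 9.53%, 30.6% and 55.8% of all genes were.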

How the data were processed

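Raw read counts per gene were deposited by the authors in 3 tables, 1 per experiment, with no normalization. Per the submitters' processing notes, bcl2fastq 2.20, FastQC 0.11.8, STAR 2.6.1d, featureCounts 1.5.1 and the build GRCh38 were used; annotation release and strand setting: not given in the sources used here. CRISPRi libraries were made with a stranded mRNA kit, and the protocol for the siRNA libraries covers stranded and non-stranded ones, per the labels' protocols.

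Each knockdown group was compared with the controls of its own experiment in edgeR 4.0.16 (R 4.3.3): TMM scaling, filterByExpr with a minimum count of 10 and a minimum total of 15, robust quasi-likelihood fits with no covariate, and Benjamini-Hochberg adjustment over all genes tested. Differences between experiments were tested as an interaction in 1 model over both. DESeq2 1.42.0, other scalings and filters, a replicate block, and leaving out each library were the alternatives. The fits were also run on simulated counts, with gene means from these data and a median dispersion from these fits. Every simulated gene had that 1 dispersion, libraries were independent, and changes were placed only in genes above a read minimum. For the interaction, only the SK-N-SH CRISPRi counts held changes. Changes below 0.5 were not simulated. The rates therefore check the fits under these settings and are not the power or error rates in these libraries. At a log2 change of 0.5 edgeR recovered 93% (siRNA), 92% (SK-N-SH CRISPRi) and 94% (SK-N-AS) of changed genes. The interaction recovered 61.5% between methods and 82.5% between lines. False calls among all calls were 5.39%, 4.95% and 3.96% with edgeR, and 9.95%, 1.62% and 7.25% with DESeq2. Promoter windows are from RefSeq, and exon overlaps from GENCODE 29, whose starts and ends match the siRNA table for 34 of 34 genes.

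The members and lists were chosen with earlier results of these data known. Values in every library are given for genes called in at least 2 experiments and for the largest called change of each role group; from each further list, up to 4 called genes with the smallest adjusted p, or the 2 smallest where none was called. Replicate numbers did not pair libraries: deviations of same-numbered libraries correlated at -0.22 to 0.064. Replicates of a group differed beyond sampling noise in every pair (chi-square per degree of freedom 1.72 to 46.6). The siRNA knockdown libraries 3 and 4 were near each other (7.94) and far from the other knockdown libraries (27.9 to 46.6).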

Additional observations from a re-analysis of the deposited data

Results flagged for a closer look

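Responses that differed between experiments by edgeR's interaction test, as differences in log2 fold change, are given here for all genes called. Between the lines under CRISPRi, SK-N-SH minus SK-N-AS, the response of cholesterol synthesis genes was lower in SK-N-SH for MVK (-0.72), ACAT2 (-0.44), HMGCS1 (-0.29) and SQLE (-0.24). It was higher for HSD17B7 (0.48), MSMO1 (0.40), PMVK (0.39), TM7SF2 (0.29) and FDPS (0.22). Among regulators and transport genes it was lower for MYLIP (-1.01), SREBF2 (-0.58) and INSIG1 (-0.25), and higher for ABCA1 (0.89), STARD4 (0.78) and SREBF1 (0.43). Among fatty acid genes it was lower for SCD (-0.43), ELOVL6 (-0.33) and FASN (-0.15), and higher for ACSS2 (0.51) and ACLY (0.14).

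Between the methods in SK-N-SH, CRISPRi minus siRNA, the response was lower under CRISPRi for the sterol genes MVK (-0.85), CYP51A1 (-0.63), ACAT2 (-0.47), SQLE (-0.35) and HMGCS1 (-0.34) and higher for MSMO1 (0.42) and PMVK (0.24). Regulators were lower, with SREBF2 at -0.76, INSIG1 at -0.56 and SCAP at -0.25. Transport genes went both ways, with ABCG1 at -1.26, MYLIP at -1.10, STARD4 at 0.73 and ABCA1 at 2.03. Fatty acid genes were lower for SCD (-0.74), ELOVL6 (-0.61), FASN (-0.54), ACACA (-0.33) and FADS1 (-0.23) and higher for ACSS2 (0.28). Both sets of differences use the same SK-N-SH CRISPRi libraries.

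Single libraries stood apart from the rest of their group in 11 of 136 groups of 4 or 5 values tested, where chance gives about 1 in 20. In SK-N-AS controls these were ABCA1 in replicate 3 (17.9 CPM, highest), INSIG1 in replicate 4 (87.3 CPM, highest) and MVD in replicate 2 (25.3 CPM, lowest). In SK-N-AS knockdown replicate 4, HSD17B7 was the lowest (13.8 CPM) and SC5D the highest (51.05 CPM). In siRNA controls they were ACSS2 (44.7 CPM, highest) and SC5D (27.9 CPM, lowest) in replicate 5, CYP51A1 (11.8 CPM, highest) and DHCR7 (62.7 CPM, lowest) in replicate 1, and SCAP in replicate 3 (149 CPM, lowest). In siRNA knockdown replicate 2, PMVK was the lowest (27.6 CPM).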

How the results depend on the processing

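No called gene of the 34 changed sign under any alternative run; sign changes of genes that were never called were not counted. Called under every alternative were 20 of 22 genes in SK-N-SH CRISPRi (13 alternatives), 17 of 19 in SK-N-AS (15) and 2 of 4 after siRNA (19). The exceptions were DHCR7 and ACSS2, ELOVL5 and SCAP, and STARD4 and TM7SF2. With library sizes alone the median log2 fold change of the genes was 0.041 after siRNA and -0.24 in SK-N-SH CRISPRi. With no filter it was -0.093 in SK-N-SH CRISPRi and -0.13 in SK-N-AS, and a filter at 1 CPM gave 2 genes up in SK-N-AS. Leaving out 1 library at a time gave 0 to 1 up and 2 to 4 down after siRNA (median -0.014 to -0.0023; TM7SF2 was lost without knockdown library 2 or 5 or control library 1), 5 up and 16 to 17 down in SK-N-SH CRISPRi (median -0.14 to -0.098), and 1 to 2 up and 17 to 20 down in SK-N-AS (median -0.14 to -0.10; 2 up without knockdown library 2 or control library 2). A block on the replicate number left 1 up and 3 down, 5 up and 17 down, and 1 up and 18 down among the 34 genes, and over all genes after siRNA gave 322 up and 1210 down. FASN no longer differed between the lines with DESeq2's size factors (adjusted p = 0.0858). Without siRNA knockdown libraries 3 and 4, an alternative added after seeing the data, 1 gene rose and 2 fell. Depth was lowest in SK-N-SH CRISPRi, where the low genes CYP51A1, ABCG1 and MYLIP had the largest standard errors of the 34 (0.14 to 0.16).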
